A study of Mus musculus with 2 samples.

Results

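Late in pregnancy some luminal cells of the mouse mammary gland already devote much of their messenger RNA to milk. The cells described here are the non-cycling luminal cells in which 7 milk genes (Csn1s1, Csn1s2a, Csn2, Csn3, Wap, Lalba and Glycam1) made up at least 35% of all unique molecular identifiers (UMIs, counts of captured transcripts). There were 984 of them among 15772 barcodes that passed the filters and 18533 barcodes in all. The Ehf KO library held 8 and the wild type (WT) library held 976. Members were chosen by measured UMIs: they were cells with more UMIs of luminal keratins and claudins than of basal genes, fewer than 3 detected genes of a hormone-sensing list, fewer than 3 UMIs of cell cycle genes, and the milk share above. Because these values chose the members, the shares of members and the levels of the 7 milk genes are descriptions and carry no test.

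Mammary cells were profiled by droplet single-cell RNA sequencing (10x Chromium, 3′ version 3 chemistry) in 1 library per genotype. The tested library came from adult mice of the Ehf_KO genotype (strain label EhfKO) and the other from adult WT mice. All mice were at day 18.5 of pregnancy, and each library pooled the thoracic and inguinal glands of 2 females. All cells were sorted as viable (7-AAD negative) and negative for the Ter119, CD31 and CD45 surface proteins, a gate that removes red blood cells, endothelial cells and leukocytes. Which part of Ehf is deleted, in which cell types, and on which strain background are not stated in the labels. With 1 library per genotype no difference below has a replicate check. The intervals are exact 95% intervals that cover counting error only, and cells of a library are not replicates of a condition.

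Alveolar luminal cells make milk. Prolactin, acting through its receptor and the transcription factor STAT5 together with the ETS family factor ELF5, turns on the genes of caseins, whey proteins and milk fat as pregnancy proceeds. Caseins carry calcium and amino acids, Wap and Lalba encode whey proteins, and the protein of Lalba is also the regulatory subunit of lactose synthase. Glycam1 encodes a mucin-like protein that is abundant in milk. Ehf encodes another ETS family factor of epithelial cells.

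STAT5 dimers bind DNA at TTCNNNGAA, and ETS factors bind around GGAA, searched here as CCGGAA. RefSeq promoters (GRCm38.p6) were matched by symbol for 6 of the 7 milk genes. The 250 bases upstream of the start held TTCNNNGAA in 3 of those 6 (Csn1s1, Csn2 and Glycam1), where 7.02% of all 32851 promoters in the table hold it. CCGGAA, on either strand, was in 0 of the 6, against 12.0% of all promoters. GGAA in other contexts was not counted, though each promoter printed below holds it, read on either strand. Both motifs were searched on both strands, and TTCNNNGAA reads the same on each. The match began 100 bases upstream of the start in Csn1s1, 93 in Csn2 and 145 in Glycam1. These 3 promoters, each with a match, are printed with that of Wap, which has none. Those of Csn1s2a and Lalba, also without a match, are not printed. Among the members Csn1s1 and Csn2 took similar shares in both libraries, and Glycam1 was the milk gene that some KO members lacked. Wap had the highest log2 ratio of the 7 between WT members and WT cells at 15 to 35% milk (2.06). Whether a match goes with any of this was not tested. Capitals mark TTCNNNGAA, sequences run 5′ to 3′ on the gene's strand, and the regions are chr5:87665958-87666207 (plus strand) for Csn1s1, chr5:87699426-87699675 (minus) for Csn2, chr15:103565082-103565331 (minus) for Glycam1 and chr11:6638650-6638899 (minus) for Wap.
Csn1s1: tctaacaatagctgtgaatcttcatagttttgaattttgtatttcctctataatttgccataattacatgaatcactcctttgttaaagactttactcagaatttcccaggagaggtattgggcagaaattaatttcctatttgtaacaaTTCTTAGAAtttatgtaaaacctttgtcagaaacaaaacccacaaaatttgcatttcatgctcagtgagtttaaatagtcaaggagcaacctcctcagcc
Csn2: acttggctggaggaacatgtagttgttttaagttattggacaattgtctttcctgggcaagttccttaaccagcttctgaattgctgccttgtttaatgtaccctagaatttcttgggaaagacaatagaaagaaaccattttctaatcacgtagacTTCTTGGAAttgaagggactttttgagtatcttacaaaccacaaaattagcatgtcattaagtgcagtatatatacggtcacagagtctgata
Glycam1: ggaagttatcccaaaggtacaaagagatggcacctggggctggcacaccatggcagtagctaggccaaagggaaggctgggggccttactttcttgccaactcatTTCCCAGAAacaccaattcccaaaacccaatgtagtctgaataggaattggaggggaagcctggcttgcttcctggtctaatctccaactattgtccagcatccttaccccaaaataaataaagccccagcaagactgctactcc
Wap: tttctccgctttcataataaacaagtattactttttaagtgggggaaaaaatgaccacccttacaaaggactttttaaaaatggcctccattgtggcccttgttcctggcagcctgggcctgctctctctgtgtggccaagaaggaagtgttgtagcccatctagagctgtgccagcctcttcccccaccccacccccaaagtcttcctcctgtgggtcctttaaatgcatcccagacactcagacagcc
A match is a string of letters and not a measured binding site, and the absence of a match in Wap says nothing of STAT5 at that gene. Likewise the absence of CCGGAA says nothing of ETS factors at these genes.

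High-milk cells were a large class in the WT library and few in the KO library. Members made up 0.122% of kept barcodes in the KO library (8 of 6561, interval 0.0527 to 0.240%) and 10.6% in the WT library (976 of 9211, interval 9.97 to 11.2%). Among non-cycling luminal cells alone they were 1.86% in KO (8 of 430, interval 0.807 to 3.63%) and 49.4% in WT (976 of 1976, interval 47.2 to 51.6%). Before the cell cycle limit there were 764 such cells in KO and 2397 in WT. The other non-cycling luminal cells divided as 251 KO and 103 WT cells under 5% milk, 111 KO and 120 WT cells at 5 to 15%, and 60 KO and 777 WT cells at 15 to 35%. The KO luminal cells thus lay mostly at the low end of the milk share and the WT cells mostly at the high end. In all, 10 kept KO barcodes and 1255 kept WT barcodes reached 35% milk. Of these, 1 KO and 175 WT barcodes were left out as cycling, 1 KO and 103 WT barcodes did not meet the luminal criterion, and 0 KO and 1 WT barcode were left out as hormone-sensing.

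**Figure D1:**
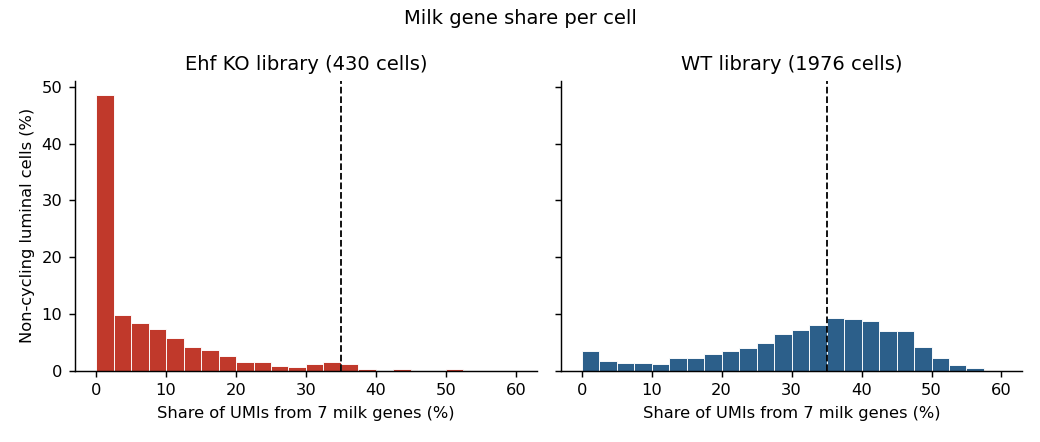
Share of UMIs from the 7 milk genes per non-cycling luminal cell (x axis, %, bins of 2.5 points) in the Ehf KO library (left, 430 cells) and the WT library (right, 1976 cells), as a percentage of those cells (y axis). The dashed line is the 35% minimum, which 8 KO and 976 WT cells passed.

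The minimum cuts a continuous range rather than a gap. The 3 KO members nearest to it had milk shares of 35.1, 35.5 and 35.9%, and the 3 KO cells just under it had 34.2, 34.3 and 34.7%. The 3 nearest WT members had 35.03, 35.03 and 35.05%, and the 3 WT cells just outside had 34.97, 34.99 and 34.999%. Just inside the minimum the KO cells had 0, 1 and 567 UMIs of Glycam1, and just outside it 499, 293 and 72. Milk shares of all 8 KO members ran from 35.1% through a median of 37.0% to 52.3%, and those of the WT members from 35.03% through 41.8% to 58.2%. Within WT, 679 members lay at 35 to 45%, 285 at 45 to 55% and 12 at 55% or more.

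Members had the highest median depth of the 4 milk-share ranges of non-cycling luminal cells in each library. KO members had a median of 15795.5 UMIs and 2404 genes per cell, and WT members 10328.5 UMIs and 1716 genes. Cells at 15 to 35% milk had a median of 11324.5 UMIs in KO and 7167 in WT. Outside the 7 milk genes the WT members still had a median of 5838 UMIs per cell, above the 5065 of WT cells at 15 to 35%. Mitochondrial UMIs were 5.58% (median) of KO members and 4.78% of WT members. In all, the 8 KO members gave 75489 UMIs outside the milk genes and the WT members 6865718, so a gene at low level in KO cannot be measured well.

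The cell type was checked on genes that the rule did not use. Spp1 (osteopontin, a milk phosphoprotein), the one listed alveolar marker that did not enter the rule, was detected in 6 of 8 KO members and 936 of 976 WT members. It had a UMI in 1.75% of KO basal cells and 41.0% of WT basal cells, whose median depths were 3701 and 2075 UMIs. All 5 endothelial, 8 immune and 4 adipocyte markers were at 0 in the KO members, and the 6 fibroblast markers had 1 UMI. In WT members the 8 immune markers summed to 7.57 scaled CPM, the 5 endothelial markers to 1.17 and the 6 fibroblast markers to 21.4, and the 4 adipocyte markers were at 0. The 8 basal markers that the rule did not use summed to 113 scaled CPM in KO members and 135 in WT members, where basal cells of the same libraries had 7983 and 10698. The 6 hormone-sensing markers outside the rule summed to 42.4 scaled CPM in KO members, from 3 UMIs of 1 gene, and 14.3 in WT members. Scaled CPM here are CPM (counts scaled to a common library total) of UMIs outside the 7 milk genes, adjusted so that the median log2 ratio of all genes to WT members is 0.

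Milk RNA was also spread through the WT library outside its luminal cells. Glycam1 had a UMI in 3.45% of KO basal cells and 90.3% of WT basal cells, and the level of Wap, Glycam1 and Csn2 in WT basal cells was 4.30, 4.20 and 5.12% of that in WT members. Lao1, Spp1, Trf and Fabp3 stood at 4.38, 4.22, 4.89 and 4.70%, close to the same ratio. All of these are ratios of sums. Per WT basal cell the milk genes of the rule took a median of 1.01% of UMIs, with an upper quartile of 1.38%. The maximum was 50.7% and the summed share 5.10%, so barcodes rich in milk weigh heavily in these ratios. Milk UMIs outside luminal cells thus differed between the libraries, and the part of free RNA in the WT levels below was not tested.

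The mixture of milk transcripts, a description of genes the rule used, was not the same in the members of the 2 libraries. In KO members Csn2 made up 34.7% of the summed milk UMIs, Csn1s2a 30.4%, Wap 14.1%, Csn1s1 10.3%, Glycam1 6.31%, Csn3 3.48% and Lalba 0.735%. In WT members Csn2 made up 30.4%, Csn1s2a 27.8%, Glycam1 16.04%, Csn1s1 11.6%, Wap 9.47%, Csn3 3.81% and Lalba 0.810%. Wap thus exceeded Glycam1 in KO members, and Glycam1 exceeded Wap in WT members. A single KO cell held 2800 of the 7123 Wap UMIs, and without it Wap took 10.97% and Csn1s1 11.1%, so that their order in KO turned. Its median share per cell was 12.0% in KO and 9.99% in WT.

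Glycam1 was the one of the 7 milk genes that was at 0 in more than 1 KO member. By falling milk share, the 8 KO members had 1379, 0, 1059, 0, 171, 567, 1 and 0 UMIs of Glycam1. The cells at 0 had 5597, 3634 and 3531 UMIs of the 7 milk genes together, which allows Glycam1 up to 0.0536, 0.0826 and 0.0850% of their milk, and at the summed WT proportion they would have held 898, 583 and 566. Every one of the 976 WT members had Glycam1, with at least 9 UMIs, a median of 777 and at most 3497. It made up at least 1.02% of the milk UMIs in each WT member, and 7 WT members had under 5%, where 5 of 8 KO members did. At 15 to 35% milk the same held: 44 of 60 KO cells and 16 of 777 WT cells had Glycam1 under 1% of their milk, and 29 KO cells and 1 WT cell had none. The median milk share in this range was 21.2% for the KO cells and 28.4% for the WT cells. Glycam1 also had a UMI in 90.3% of WT and 3.45% of KO basal cells, and the part of free RNA in these counts was not tested. Which of the 2 pooled females a cell came from is not recorded in the files used here.

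The other milk genes were present in nearly all KO members. Csn1s1 had 342 to 949 UMIs per KO member, Csn1s2a 1150 to 2815, Csn2 1297 to 3065, Csn3 56 to 511 and Wap 183 to 2800. Lalba was at 0 in 1 KO member and reached 103 UMIs in another, and it was at 0 in 3 of 976 WT members. Spp1 was at 0 in 2 of 8 KO members and in 40 WT members (4.10%).

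**Figure D2:**
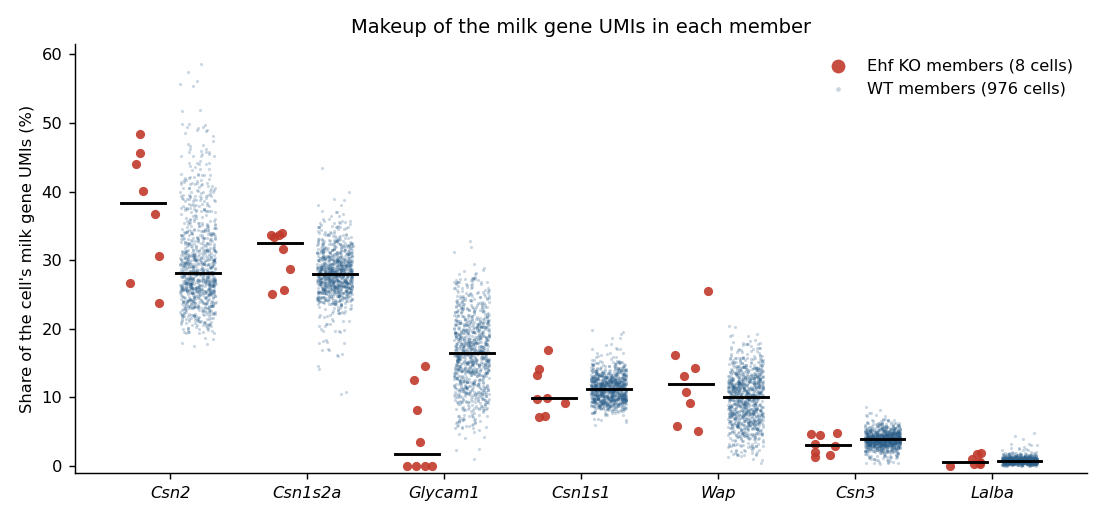
Share of each cell's milk gene UMIs (y axis, %) taken by each of the 7 milk genes (x axis) in the 8 Ehf KO members (red, left) and the 976 WT members (blue, right). Each point is 1 cell and black lines are medians. In 4 KO members Glycam1 lies at or near 0, below every WT member.

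Across milk-share ranges Wap and Glycam1 took their highest shares in the members, and Csn2 its lowest. In the KO library Wap made up 0.411% of the milk UMIs under 5% milk, 0.403% at 5 to 15%, 4.84% at 15 to 35% and 14.1% in members. In the WT library it made up 2.89, 1.00, 4.91 and 9.47%, and among WT members 8.64% at 35 to 45%, 10.7% at 45 to 55% and 13.7% at 55% or more. Glycam1 ran 0.0711, 0.336, 1.91 and 6.31% in KO and 4.58, 5.47, 13.1 and 16.04% in WT. Csn2 took 55.3, 44.4, 39.1 and 34.7% in KO and 47.1, 41.3, 33.4 and 30.4% in WT. Csn2 was still the first of the 7 at each range. The other caseins did not share one course: Csn1s1 took 3.31, 6.32, 9.45 and 10.3% in KO and 16.8, 16.1, 12.5 and 11.6% in WT, and Csn1s2a 22.2, 42.1, 38.8 and 30.4% in KO and 19.9, 31.3, 31.2 and 27.8% in WT. The first WT values come from cells whose milk UMIs were few (a summed share of 2.01%), and the part of free RNA in them was not tested.

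A closer look at the WT library shows which other genes go with a high milk share. WT members were set against the 777 WT cells of the same rule at 15 to 35% milk, both from 1 library. Of 8555 genes with at least 50 UMIs over both groups, 552 (6.45%) were higher past 1.5-fold in members and 518 (6.05%) were lower. Genes of milk, milk fat and ion transport led the higher side. Kit, a progenitor gene, and 7 genes of DNA replication were among the lower. The split depends on the scaling: with UMIs outside milk and no centring every log2 ratio is 0.18 lower and the counts are 272 higher and 1104 lower, and with all UMIs it is 0.51 lower and they are 95 and 3501.

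Secreted milk proteins outside the rule were higher in members. Of 7 measured on a list of 8, 4 were past 1.5-fold and 0 were lower, with a median log2 ratio of 0.67 against 0.00 for all genes. Spp1 had 16370.5 scaled CPM in WT members and 4825 in the WT cells at 15 to 35% (log2 1.76, interval 1.74 to 1.78), the highest ratio of those named by rank. Csn1s2b, a minor casein, had 646 and 226 scaled CPM (log2 1.52). Trf (transferrin, an iron carrier) had 21348 and 9477 (log2 1.17), and Wfdc18, a secreted protein with a whey acidic protein fold, had 31566 and 19899 (log2 0.67). Mfge8, a coat protein of milk fat globules, was nearer to the median gene at 2101 and 1547 (log2 0.44), and Muc15 did not differ beyond counting error (log2 -0.03, interval -0.12 to 0.06).

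Milk fat genes moved with them. Of 22 tested genes of fatty acid and triglyceride synthesis, 11 were higher past 1.5-fold and 0 lower (median log2 0.57), and of 9 genes of the fat globule and lipid droplet 4 were higher and 0 lower (median 0.48). Cidea, which enlarges lipid droplets and is needed for milk fat secretion in mice, had 957 scaled CPM in members and 295 at 15 to 35% (log2 1.70, interval 1.62 to 1.78). Slc25a1, the mitochondrial citrate carrier that supplies carbon for fat, had 236 and 103 (log2 1.19). Lpl (lipoprotein lipase) had 2054 and 919 (log2 1.16), Scd1, a fatty acid desaturase, 2180 and 1015 (log2 1.10), and Fabp3, a fatty acid binding protein, 12169.7 and 6518 (log2 0.90). Each of these levels was higher again at 45 to 55% milk than at 35 to 45%, for example 1298 and 814 scaled CPM for Cidea. Cholesterol synthesis followed less: 6 of 20 genes were higher and 0 lower (median 0.37).

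Transporters that load milk were also higher in members. Of 15 genes of ion and metal transport 8 were higher and 1 (Atp2b1) was lower, with a median log2 of 0.62. Atp2b2, the calcium pump of the apical membrane that delivers milk calcium, had 67.3 scaled CPM in members and 21.6 at 15 to 35% (log2 1.64, interval 1.34 to 1.95). Slc34a2, a sodium phosphate cotransporter, had 321 and 129 (log2 1.32). Slc5a5, the iodide transporter, had 40.6 and 22.4 (log2 0.86). Amino acid supply had 5 of 12 higher and 1 lower (median 0.58), among them the folate receptor Folr1 at 809 and 456 (log2 0.83). Genes of lactose synthesis and glucose supply differed less, with 0 of 11 higher and 1 (Hk1) lower (median 0.22).

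Folding and defence genes completed the higher side. In the endoplasmic reticulum (ER) and secretory list 5 of 28 genes were higher and 0 lower, with a median log2 of 0.35. Derl3, of ER-associated degradation, had 24.6 scaled CPM in members and 7.59 at 15 to 35% (log2 1.70, interval 1.19 to 2.23). Of 12 mucosal defence genes 6 were higher and 1 lower. Lao1, an L-amino acid oxidase whose hydrogen peroxide is antibacterial in mouse milk, had 3544 and 1263 (log2 1.49), and Sftpd, a collectin, 246 and 105 (log2 1.22). Ltf (lactoferrin), on the same list, was lower at 155 and 256 (log2 -0.72). Also named by rank were Cel, a bile salt-stimulated lipase, at 251 and 93.9 (log2 1.42), and Gldc, a subunit of the glycine cleavage system, at 151 and 58.5 (log2 1.37).

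Kit and Igfbp5 had the lowest ratios among the genes described here. Kit, the receptor that marks luminal progenitors, had 11.5 scaled CPM in members and 50.3 at 15 to 35% (log2 -2.13, interval -2.51 to -1.76), and it was the 1 of 7 tested progenitor genes past 1.5-fold (median log2 -0.14). Igfbp5, which binds insulin-like growth factors, had 142 and 487 (log2 -1.78), and at 45 to 55% milk it had 75.8. Igfbp5 is also a basal gene, at 789 scaled CPM in WT basal cells. The basal markers outside the rule summed to 135 scaled CPM in members and 134 at 15 to 35%. The part of basal RNA in the Igfbp5 ratio was not tested. Edn1 (endothelin 1) had 84.3 and 158 (log2 -0.91), Phlda1 86.1 and 191 (log2 -1.15) and the transcription factor Sox4 110 and 188 (log2 -0.78).

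Genes of DNA replication were lower as well. Of 12 tested genes of DNA replication outside the rule 0 were higher and 7 lower, with a median log2 of -0.60. Stmn1, a tubulin-binding protein, had 14.7 and 43.5 scaled CPM (log2 -1.56). The limit of fewer than 3 cell cycle UMIs holds per cell in both groups while members have more UMIs, so the limit is tighter for members. Of 20 immediate early and dissociation stress genes 2 were lower and 0 higher (median -0.02), namely Hspb1 (log2 -1.54) and Nr4a1 (log2 -0.72). Hspb1 had 27.5 scaled CPM in members, 80.1 at 15 to 35% and 540 in WT basal cells.

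Regulators of the lactation programme changed little along this step. The prolactin and STAT5 list had 2 of 18 genes higher and 0 lower (median log2 0.03), with Socs2, a STAT5 target that dampens cytokine signals, at 37.3 and 23.2 scaled CPM (log2 0.69). Elf5 had 440 in WT members and 385 in WT cells at 15 to 35%. Epithelial ETS factors had 0 of 6 past 1.5-fold and a median of -0.38. Ehf itself was at 131 scaled CPM in WT members and 180 at 15 to 35% (log2 -0.47, interval -0.60 to -0.33), under the 1.5-fold used here. Along the WT ranges Ehf had 353 scaled CPM under 5% milk, 253 at 5 to 15%, 180 at 15 to 35% and 131 in members, while Elf5 had 117, 233, 385 and 440.

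**Figure D3:**
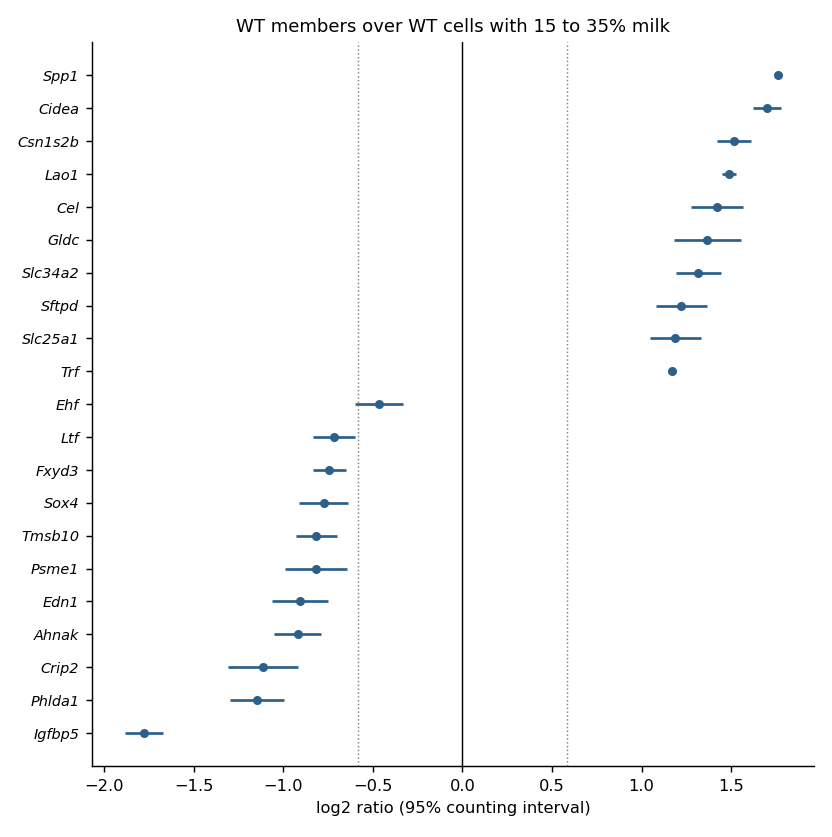
Log2 ratio of scaled CPM (x axis) in WT members over WT cells at 15 to 35% milk, for Ehf and the 10 highest and 10 lowest genes among those at 100 scaled CPM or more in the higher group, a limit that leaves out Kit. Points are ratios, bars are 95% counting intervals and dotted lines mark 1.5-fold. Among those plotted, Spp1 (1.76) and Cidea (1.70) are highest and Igfbp5 (-1.78) is lowest.

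Against WT luminal cells with hardly any milk the same lists stood much further apart. Of 7383 genes tested between WT members and the 103 WT cells under 5% milk, 19.3% were higher past 1.5-fold with an interval without 0 and 17.0% lower. Fatty acid and triglyceride synthesis had 21 of 22 higher and 0 lower (median log2 2.81), the fat globule list 8 of 9 higher (median 2.91), and the ER list 23 of 28 higher (median 1.25). Of 8 progenitor genes 5 were lower and 0 higher (median -1.24). Scaled by all UMIs, the medians were 1.74 for fatty acid synthesis, 1.83 for the fat globule, 0.18 for the ER list and -2.32 for progenitor genes. The size of the ER difference thus depends on the scaling. The cells under 5% milk also carried other markers: the 8 immune markers summed to 7.57 scaled CPM in WT members and 522 in these cells, the 6 fibroblast markers to 21.4 and 127, and the 6 hormone-sensing markers outside the rule to 14.3 and 96.03. Of 20 immediate early and stress genes 9 were lower and 0 higher in members. Their part in the list differences was not tested. Both comparisons use the same WT members.

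Genes outside the rule were also ranked by how closely their level followed the milk share. The milk genes of the rule were left out beforehand, so the ranking cannot place them against other genes. Over the 8 groups (4 milk-share ranges in each of 2 libraries), 977 genes with at least 100 scaled CPM in WT members were ranked. The first 10 all had a Spearman rho of 1 with Pearson r of 0.95 to 0.98 for log2 levels, a description over groups that share libraries and depth. The first was Orai1, the plasma membrane calcium channel of store-operated entry, with 25.99, 48.8, 105 and 240 scaled CPM in KO and 37.6, 67.7, 169 and 264 in WT by rising milk share. Slc50a1, a sugar transporter, followed with 31.3, 54.5, 83.1 and 127 in KO and 37.6, 59.4, 103 and 148 in WT. Acaca and Acly, which make the malonyl and acetyl units of fatty acids, were also among them, with 381 and 466 scaled CPM in KO members and 503 and 646 in WT members. The remaining genes were Prdx4, Cox5a, Hsd17b12, Snx3, Gadd45g and Fndc3a.

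**Figure D4:**
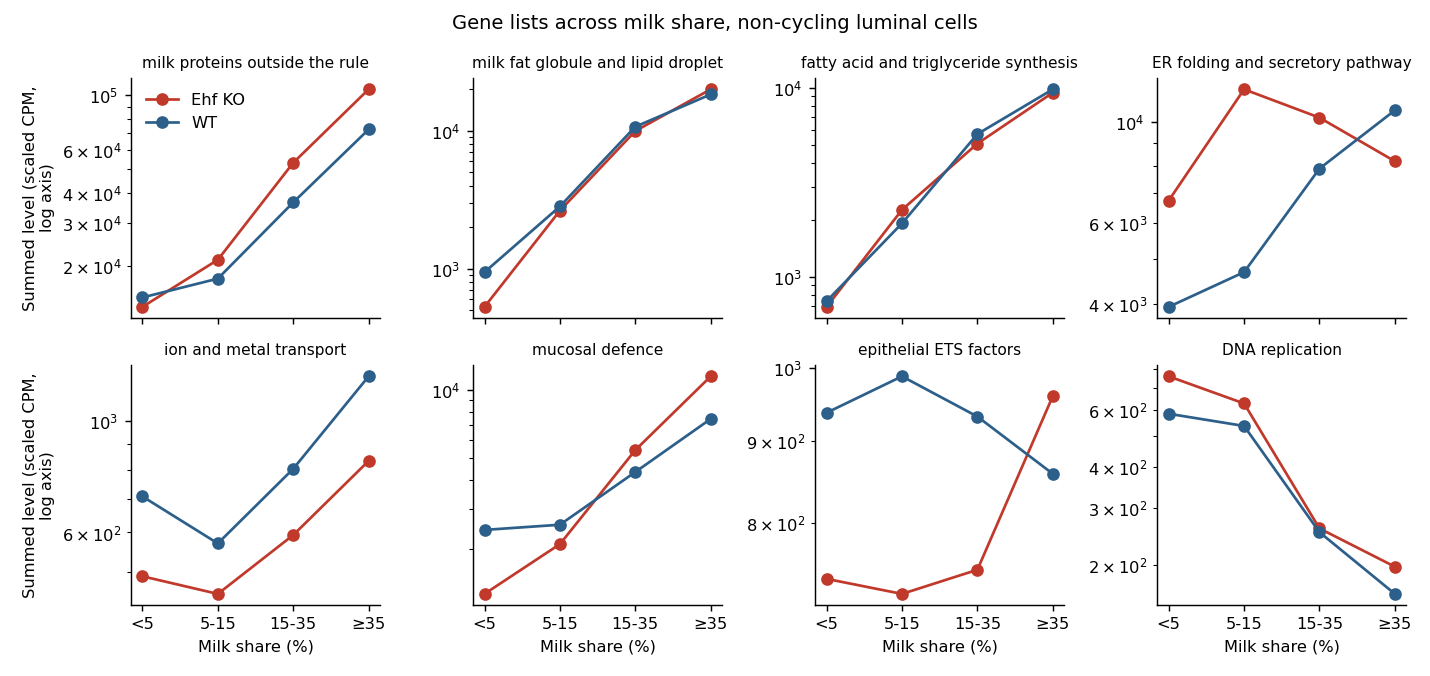
Summed level of 8 gene lists (y axis, scaled CPM, log axis) by milk share (x axis) in non-cycling luminal cells of the Ehf KO library (red) and the WT library (blue), genes of the rule left out. Milk protein, fat and defence lists are highest in the members of both libraries, while the ER list is at 8203 in KO members and 10609 in WT members.

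The 8 KO members were then set against the WT members. Of 7098 genes with at least 50 UMIs over both groups, 312 (4.40%) were higher and 119 (1.68%) lower, past 1.5-fold with an interval without 0. The KO sum is small, so among the 1573 genes with at least 500 UMIs the shares were 7.76% higher and 7.06% lower. The lists below are counted over genes with at least 500 UMIs, whose median log2 ratio was -0.02, and WT members are the same cells as above.

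Ehf had 3 UMIs in KO members, from 2 of the 8 cells, and 896 UMIs in WT members, from 485 of 976 cells (49.7%). As levels these are 42.4 scaled CPM in KO and 131 in WT (log2 -1.62, interval -3.90 to -0.07). Among KO luminal cells under 5% milk 50.6% still had an Ehf UMI, and 60.2% of WT cells in that range did. Median depths there were 5635 UMIs in KO and 2976 in WT. With cells thinned to 2000 UMIs the share was 26.6% of 237 KO cells (interval 21.1 to 32.7%). The WT share was then 48.0% of 75 cells (interval 36.3 to 59.8%). Tags from the 3′ end may lie outside the deleted part, so these counts do not check the label. Elf5, the ETS factor of alveolar cells, was detected in 8 of 8 KO members, at 621 scaled CPM, and at 440 in WT members (log2 0.50, interval 0.03 to 0.93).

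Milk proteins split in both directions. Of 7 measured outside the rule 2 were higher in KO members (Csn1s2b and Wfdc18) and 2 lower (Spp1 and Mfge8). Csn1s2b had 1920 scaled CPM in KO and 646 in WT (log2 1.57, interval 1.32 to 1.82), although 3 of 8 KO members and 407 of 976 WT members had none. Wfdc18 had 67856 in KO and 31566 in WT (log2 1.10, interval 1.06 to 1.15). Spp1 had 6029 in KO and 16370.5 in WT (log2 -1.44, interval -1.58 to -1.30). Mfge8 had 635 in KO, with 0 to 18 UMIs per cell, and 2101 in WT (log2 -1.73, interval -2.18 to -1.30). Trf had 28887 in KO and 21348 in WT (log2 0.44), and Muc1 and Muc15, mucins of the fat globule membrane, did not differ beyond counting error (log2 0.38 and 0.23).

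Among the genes of the rule, Glycam1 stood apart at 44856 scaled CPM in KO members and 119994 in WT members (log2 -1.42). The 4 caseins and Lalba lay within log2 -0.25 to 0.12 of WT, Csn1s1 being the lowest and Csn2 the highest. Wap had 100569 in KO and 70879 in WT (log2 0.50), and log2 -0.033 without the KO cell that held 2800 of its 7123 UMIs. At 15 to 35% milk Glycam1 differed more widely, at 5337 in KO and 45228 in WT (log2 -3.08, interval -3.13 to -3.04), while Csn2 had 109288 and 115827 (log2 -0.08).

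Fat genes of KO members were mixed. Of 8 lipid droplet and fat globule genes 1 was higher (Plin2) and 3 lower (Btn1a1, Cidea and Rab18), with a median log2 of -0.22. Of 17 fatty acid and triglyceride genes 1 was higher (Olah) and 2 lower (Elovl5 and Lpl), with a median of -0.40. Cidea had 14 UMIs from 3 of 8 KO cells, 11 of them in 1 cell, a level of 198 scaled CPM in KO and 957 in WT (log2 -2.28, interval -3.15 to -1.53). Without that cell its ratio was -4.31. In WT it was detected in 886 of 976 members. Lpl was detected in 8 of 8 KO cells at 833 scaled CPM, against 2054 in WT (log2 -1.30, interval -1.70 to -0.93). Btn1a1 (butyrophilin, a membrane protein of the fat globule) had 1073 in KO and 1865 in WT (log2 -0.80). Plin2, the coat protein of lipid droplets, had 2273 in KO and 1254 in WT (log2 0.86, interval 0.62 to 1.08). Olah, the thioesterase that releases medium-chain fatty acids, had 1017 in KO and 403 in WT (log2 1.33, interval 0.98 to 1.67).

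Defence genes were the list with the most members higher in KO. Of 11 genes, 5 were higher and 0 lower (C3, Saa1, Saa2, Lcn2 and Pigr), with a median log2 of 0.34. C3 (complement component 3) was detected in 8 of 8 KO members with 3 to 25 UMIs each, at 1002 scaled CPM, and in 591 of 976 WT members, at 202 (log2 2.31, interval 1.95 to 2.66). It had a UMI in 26.8% of KO and 9.83% of WT basal cells. Lcn2 (lipocalin 2, an iron-withholding protein) had 5309 in KO and 2262 in WT (log2 1.23, interval 1.08 to 1.38). The acute phase genes Saa1 and Saa2 rest on single cells: 43 of 44 UMIs of Saa2 came from 1 KO member, and without the KO member with most UMIs of each, Saa1 was at log2 -0.13 and Saa2 at -3.36. Lao1 was present in 8 of 8 KO members, with 5 to 42 UMIs each.

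Genes by rank were few in UMIs on the KO side. Gjb2 (connexin 26, a gap junction protein) had 26 UMIs from 6 of 8 KO cells, 17 of them in 1 cell, at 367 scaled CPM in KO and 61.9 in WT (log2 2.57, interval 1.94 to 3.14, and 1.24 without that cell). At 15 to 35% milk it had 228 in KO and 72.1 in WT (log2 1.66). Orm1, an acute phase protein, had 17 UMIs from 3 cells, 11 of them in 1, and log2 3.34 (2.02 without it). Cbr2, Prorp, Tap2, Cd47, Bri3, Zfas1 and Dcxr had 8 to 12 KO UMIs each and log2 ratios of 2.15 to 3.04. Of the lowest, Sgk1, a kinase induced by glucocorticoids, had 4 UMIs in KO and 2831 in WT, at 56.5 and 412 scaled CPM (log2 -2.87, interval -4.74 to -1.51). Ivns1abp, Gclc, Iho1, Insig1, Cd14, Gfpt1, Igfbp5 and Ubxn2a had 1 or 2 KO UMIs each, and their intervals reach from -8.46 to -0.44.

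Secretory pathway and hormone response gave small counts in both directions. Of 24 ER and secretory genes 1 was higher (Fam20c, the kinase that phosphorylates caseins, log2 1.15) and 4 lower (Sdf2l1, Dnajb11, Sec61b and Rpn1), with a median of -0.38. Of 8 prolactin and STAT5 genes 2 were higher and 1 lower (median 0.22). Prlr, the prolactin receptor, had 2 UMIs in KO members, 28.2 scaled CPM, and 120 in WT (log2 -2.09, interval -5.14 to -0.24). Ccnd1 (cyclin D1) had 282 in KO, 10 of its 20 UMIs from 1 cell, and 105 in WT (log2 1.43, interval 0.71 to 2.06). Immediate early genes, which move with tissue dissociation, were lower: 0 of 17 were higher and 5 lower (median -0.38), with Fos at 1497 in KO and 3066 in WT (log2 -1.03). Of 3 ETS genes with enough UMIs 1 (Ehf) was lower. The remaining lists had few measured genes: cholesterol synthesis 1 lower of 3, lactose and glucose 1 of 3, ion transport 1 of 5, amino acid supply 0 of 4, progenitor genes 1 of 4, chemokines 1 of 2, and involution 2 higher and 1 lower of 7.

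**Figure D5:**
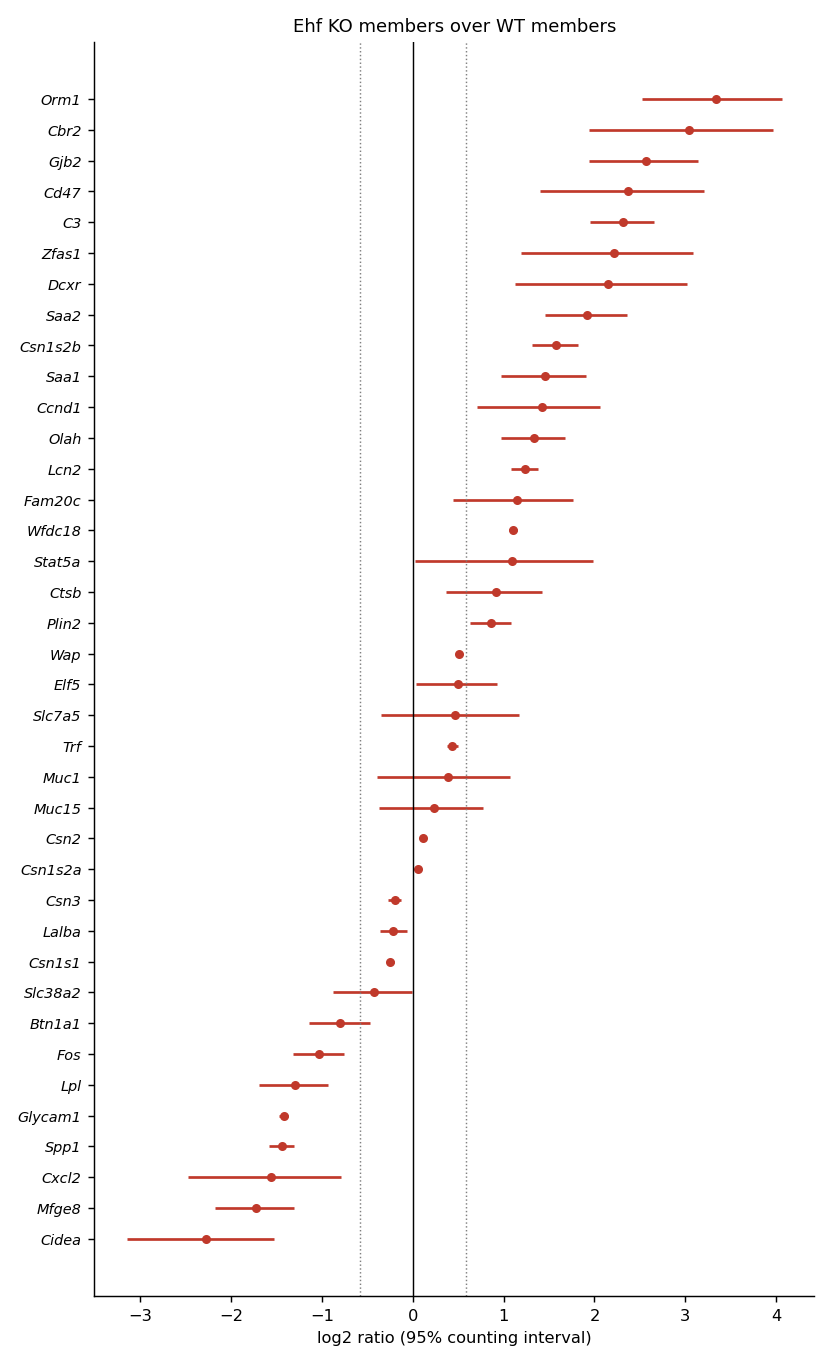
Log2 ratio of scaled CPM (x axis) in the 8 Ehf KO members over the 976 WT members for the 38 named genes with at least 10 KO UMIs. Points are ratios, bars are 95% counting intervals and dotted lines mark 1.5-fold. C3 and Gjb2 lie above WT and Cidea, Mfge8, Spp1 and Glycam1 below it.

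Within the KO library the members were also set against the 60 KO cells at 15 to 35% milk. Of 1716 genes 8.28% were higher and 2.80% lower, past 1.5-fold with an interval without 0. Milk proteins had 6 of 7 higher (median log2 1.01), fat globule genes 7 of 8 (median 0.97) and fat synthesis 8 of 15 (median 0.78), with 0 lower in each. Cidea had 198 scaled CPM in KO members and 51.6 in KO cells at 15 to 35% (log2 1.94, interval 0.93 to 2.86). The ER list ran the other way, with 1 of 26 higher and 7 lower (Derl3, Dnajc3, Herpud1, Hsp90b1, Hspa5, Pdia4 and Sdf2l1) and a median of -0.32. Its summed level by rising milk share was 6727, 11794, 10223 and 8203 scaled CPM in KO and 3935, 4689, 7904 and 10609 in WT.

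WT members also varied among themselves beyond counting error, by a measure that grows with a gene's level and so puts abundant genes first. Among 444 genes with at least 200 scaled CPM, the squared deviation of each cell from its expected count was 1.29 times the expected in the median gene. For Spp1 it was 58.2 times, with a median of 14056 CPM outside milk per cell, quartiles of 6697 and 23218 and a highest value of 70895. Wfdc18 followed at 53.0 and Trf at 17.0. Csn1s2b (15.7) was detected in 569 of 976 WT members, the chemokine Cxcl2 (15.4) in 391 and Saa1 (10.3) in 273, and the 10 cells with most of it held 19.1% of the Saa1 UMIs. Nuclear and ribosomal RNAs that track RNA quality were also in this group, with Malat1 at 149, Rn45s at 40.2 and Rn18s at 26.4.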

How the data were processed

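UMI counts per gene and barcode for 1 Ehf KO and 1 WT library were taken as the authors deposited them, as raw whole numbers. GRCm38 (mm10) and Seurat 4.0.4 are named in the submitters' processing notes. The sources used here do not give the aligner or counting tool. The KO library had 7275 barcodes with 40066795 UMIs and the WT library 11258 with 48720938. Of 27179 features 1314 had no symbol (1.74% of KO and 1.36% of WT UMIs).

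Barcodes with at least 1000 UMIs, 500 genes and at most 20% mitochondrial UMIs were kept (6561 KO, 9211 WT). The libraries shared 25 barcodes, 1 of them a WT member. Scrublet in scanpy 1.11.5 called 0 KO and 122 WT barcodes as doublets (3 of them members), so it did not work in the KO library, and none were removed. UMIs were summed per library and milk-share range, given as CPM outside the 7 milk genes and centred on the median gene, genes with under 50 UMIs left out. Intervals are exact at 95% (scipy 1.17.1), and a count of 0 was set at 3 for bounds. The ratio step was run on simulated counts without spread between cells. Such a run cannot check the intervals of genes that vary among cells.

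Named genes were the 10 highest and 10 lowest ratios at 100 scaled CPM or more that kept their direction under 3 scalings, Ehf, milk proteins, up to 4 members of each list and the 10 genes most like the milk share; Gm, Rik, mitochondrial, ribosomal protein, haemoglobin and immunoglobulin genes stayed out of the ranks. Some of these are given only in counts. The rule for spread among cells was added later. Members and lists were chosen with earlier results of these data known.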

Additional observations from a re-analysis of the deposited data

Results flagged for a closer look

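For 9 named genes the step from 15 to 35% milk to the members ran in opposite directions in the KO library and the WT library, each with a counting interval without 0. The difference was not tested, since there is 1 library per genotype and 8 KO members. Only named genes were screened, and the share over all genes was not computed. Gjb2, Cd47, Bri3 and Iho1 were named by rank for ratios of these same 8 KO members to WT members. That choice favours such differences. Among them are 3 genes of ER folding or degradation that were lower in KO members and higher in WT members: Derl3 (log2 -3.11 in KO and 1.70 in WT), Sdf2l1 (-3.36 and 0.95) and Pdia4 (-1.16 and 0.24). The first 2 of these rest on 1 UMI each in KO members, 14.1 scaled CPM, against 122 and 145 scaled CPM in KO cells at 15 to 35%. Iho1 was lower in KO at -4.09 and higher in WT at 0.44, with 2 UMIs in KO members. Higher in KO and lower in WT were Tmsb10, which binds actin monomers (0.69 and -0.82), Gjb2 (0.69 and -0.22), Cd47, a surface signal that restrains phagocytosis (1.19 and -0.38), Bri3 (1.52 and -0.50) and Cxcl2 (1.05 and -0.19). All 13 UMIs of Cxcl2 in KO members came from 1 cell, and 17 of 26 for Gjb2.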

How the results depend on the processing

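The gap between the libraries in the share of members kept its direction under every alternative tried. A milk minimum of 30% gave 0.305% in KO and 13.9% in WT, and one of 40% gave 0.0305 and 6.62%. The WT share was 13.02% with cells thinned to 2000 UMIs, 15.7% at 2000 UMIs or more and 12.5% with cycling cells kept. Counts of genes depended on the filter, the scaling and the depth. For WT members over WT cells at 15 to 35%, genes higher and lower were 272 and 1104 without centring, 95 and 3501 with all UMIs, 872 and 975 at 20 UMIs or more, 233 and 134 at 200 or more, and 329 and 286 with thinned cells. For KO over WT members, genes higher were 474 at 20 UMIs or more, 207 at 200 or more, 92 with thinned cells and 548 at a 40% minimum. Genes lower were 13 with thinned cells, 235 at a 30% minimum and 3 at 40%. Leaving out each KO member in turn, added after seeing the data, gave 286 to 337 higher and 91 to 117 lower.

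A 40% minimum leaves 2 KO cells, and 46.9% of the 5662 genes tested were then at 0 in KO, against 19.5% of 7098 at 35%. Centring on the median gene therefore moved every KO log2 ratio up by 0.97, and all 14 list medians were above 0, where 11 were below 0 at 35%: milk proteins 1.37, fat globule 1.09, fatty acid 0.82, cholesterol 0.26, lactose 0.40, ion transport 0.77, amino acid 1.00, ER 0.52, prolactin 1.58, ETS 1.00, progenitor 0.66, defence 1.47, involution 0.47 and immediate early 0.47. Single genes below WT at 35% were also above it: Iho1 (0.22), Gfpt1 (0.66), Igfbp5 (0.47), Cidea (0.44), Ehf (1.00), Csn1s1 (1.05), Csn3 (1.08), Lalba (1.41), Glycam1 (0.19), Spp1 (0.32), Btn1a1 (0.63), Lpl (0.18), Slc38a2 (1.03), Sdf2l1 (0.40) and Fos (0.070). With the same 2 cells and no centring, added after seeing the data, 142 genes were higher and 58 lower, 8 of the 14 medians were below 0, and Cidea (-0.53), Glycam1 (-0.78), Spp1 (-0.64) and Lpl (-0.79) stayed below WT, while Ehf (0.037), Csn1s1 (0.078), Csn3 (0.11), Lalba (0.44) and Slc38a2 (0.065) did not. Csn1s2a changed sign without centring (-0.040). Without the KO member with most UMIs of the gene, also added later, Csn1s2a (-0.059), Wap (-0.033), Saa2 (-3.36) and Saa1 (-0.13) did. In WT members with all UMIs, Mfge8 (-0.069), Muc1 (-0.091), Slc35a2 (-0.039), Ugp2 (-0.065), Cd14 (-0.27) and Zfp36 (-0.028) did. The cause of these was not tested. Of the other values of single genes 264 moved and 684 stayed within their interval.

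No paired analysis was possible because each genotype has 1 library. The 8 KO members hold few UMIs, so genes of low level cannot be compared, and library, animal and genotype cannot be told apart.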
